A study of Mus musculus with 5 samples.

Results

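The genes described here are 35 genes of the response to low oxygen and of glycolysis, measured in single cells of mouse tumour tissue. They were given as a list of symbols and are 35 of the 32285 genes (32245 symbols) in the count matrices, and each of them was found there. Of these members, 15 are hypoxia-induced genes outside glycolysis and 20 serve glucose uptake, glycolysis, lactate handling or pyruvate use. A second list of 48 genes of the same processes that are not members is described beside them by counts.

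The tissue came from BALB/c mice aged 6 weeks in which CT26 cells, a line from a mouse colon carcinoma, had been grown under the skin. Control mice were given phosphate-buffered saline, and treated mice were given 100 µg of the anti-CTLA-4 antibody clone 9H10, which binds an inhibitory receptor of T cells. Both were injected intraperitoneally on days 5, 8 and 11 after inoculation and killed on day 13. The labels name the material only as tissue and do not say how many animals went into a library, and there was 1 gene expression library per treatment, made with a droplet kit that reads the 5' end of transcripts. No difference between the libraries was therefore tested against a spread between animals, and treatment, animal, library and depth cannot be told apart. Intervals below are exact 95% intervals and cover counting error only.

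Cells sense oxygen through prolyl hydroxylases that mark the alpha subunits of the hypoxia-inducible factors (HIFs) for destruction. When oxygen is short the subunits persist, pair with ARNT and bind a short DNA motif near their target genes, among them glucose transporters, glycolytic enzymes, angiogenic factors and genes of mitophagy. Many tumour cells also run glycolysis at a high rate in the presence of oxygen, and macrophages, neutrophils and activated T cells draw on the same pathway.

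The promoters of the members are shown first because the core of the HIF motif is what the list shares in sequence. The 250 bases before each RefSeq transcription start were searched for ACGTG and GCGTG on both strands. The search found a RefSeq promoter for 33 of the 35 members, and Ndrg1 and Slc2a3 were not matched. At least 1 of both cores was present in 31 of these 33 genes (93.9%), against 41.5% of 27025 genes with a promoter window. ACGTG alone was present in 20 of 33 members (60.6%), against 18.5% of all genes. All 14 matched hypoxia-induced members and 17 of 19 glycolysis members held a core. Member promoters were also richer in CpG, with a median of 18 CpG dinucleotides per window against 6 over all 32851 windows, and both cores contain a CpG. A match is a run of letters and not a measured binding site. The stretches printed are 60 bases each from GRCm38.p6, for 3 members that were abundant in tumour-like cells (Bnip3, Pgk1 and Ldha) and 2 that were nearly absent from them (Egln3 and Adm). None of the 5 stretches overlaps an annotated exon (GENCODE M21). Capitals mark ACGTG or GCGTG as read on the strand of the gene or, as CACGT or CACGC, on the other strand, and these overlap where CACGTG is printed.
Bnip3 (chr7:138909582-138909641, minus strand, 135 to 76 bases before the start): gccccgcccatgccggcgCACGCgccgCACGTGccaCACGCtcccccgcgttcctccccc
Pgk1 (chrX:106186941-106187000, plus strand, 159 to 100 bases before the start): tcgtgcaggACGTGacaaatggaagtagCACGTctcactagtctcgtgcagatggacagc
Ldha (chr7:46845742-46845801, plus strand, 62 to 3 bases before the upstream start): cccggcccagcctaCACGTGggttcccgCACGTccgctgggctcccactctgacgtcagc
Egln3 (chr12:54204065-54204124, minus strand, 250 to 191 bases before the start): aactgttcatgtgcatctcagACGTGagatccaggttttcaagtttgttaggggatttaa
Adm (chr7:110627575-110627634, plus strand, 82 to 23 bases before the start): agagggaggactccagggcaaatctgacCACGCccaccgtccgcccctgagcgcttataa
The core thus occurred before the starts of abundant and nearly absent members alike.

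The control library held 86478313 unique molecular identifiers (UMIs, counts of captured RNA molecules) over 5649 barcodes, and the anti-CTLA-4 library held 19989467 over 4186 barcodes. After filters 5242 and 3950 cells remained, with 18 barcodes in common, and clustering that left the members out gave the cell classes named below. Tumour-like cells numbered 2512 in the control library and 23 in the anti-CTLA-4 library. Crabp1, the leading tumour-like marker, stood at 4964 CPM in them (UMIs of the gene per 1000000 UMIs of the class), against 411 CPM in the other named cells. Krt20 stood at 331 CPM in tumour-like cells. The epithelial markers Epcam (0.387 CPM), Krt8 (0.115 CPM) and Krt18 (0.1003 CPM) were nearly absent, and so was the leukocyte marker Ptprc (0.415 CPM), so the name rests on 5 of 11 listed markers. The 23 anti-CTLA-4 cells held those 5 markers at 21.8% of the control level and were not compared. Free RNA was gauged by the same 5 markers, which in control cells stood at 7.21% of the tumour-like level in monocyte/macrophage-like cells, 11.8% in T-like cells, 21.1% in neutrophil-like cells and 28.8% in fibroblast-like cells. In the anti-CTLA-4 library these shares were 0.463%, 0.886%, 0.0830% and 5.37%. Crabp1 alone stood at 0, 0.878, 2.58 and 112 CPM in the same classes of that library. The gauge in its monocyte/macrophage-like and T-like cells thus rested mainly on the other markers. Whether some classes make these markers themselves was not tested, so the shares may overstate free RNA.

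Summed over all members, tumour-like cells had the highest level in the control library. All members together took 139 of every 10000 UMIs of tumour-like cells (interval 138.9 to 139.45). Monocyte/macrophage-like cells followed with 103 and neutrophil-like cells with 88.5. T-like cells (87.6) did not differ from neutrophil-like cells beyond their intervals, and fibroblast-like cells (76.2), NK-like cells (73.0), dendritic-like cells (65.6), keratinocyte-like cells (61.7) and B-like cells (47.7) followed. The 34 endothelial-like cells, too few for the comparisons, stood at 96.5. In the anti-CTLA-4 library the order of all members began with monocyte/macrophage-like cells (119), neutrophil-like cells (98.7) and T-like cells (70.8) and ended with keratinocyte-like cells (38.2) and plasma-like cells (22.975).

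The order differed between the parts of the list. Glycolysis members took 128 of every 10000 UMIs of tumour-like cells, against 89.95 in monocyte/macrophage-like, 77.8 in neutrophil-like, 77.2 in T-like and 57.1 in fibroblast-like cells of the control library. Hypoxia-induced members were highest in fibroblast-like cells (19.1), with monocyte/macrophage-like cells at 12.8, tumour-like cells at 11.5 and B-like cells at 4.84. The tumour-like lead in the summed list was thus a lead of the glycolysis members. An unnamed cluster of 397 shallow control cells, with Ptprc in 0.962% of its cells and no class marker that qualified, held all members at 165 and is not counted as tumour-like.

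**Figure D1:**
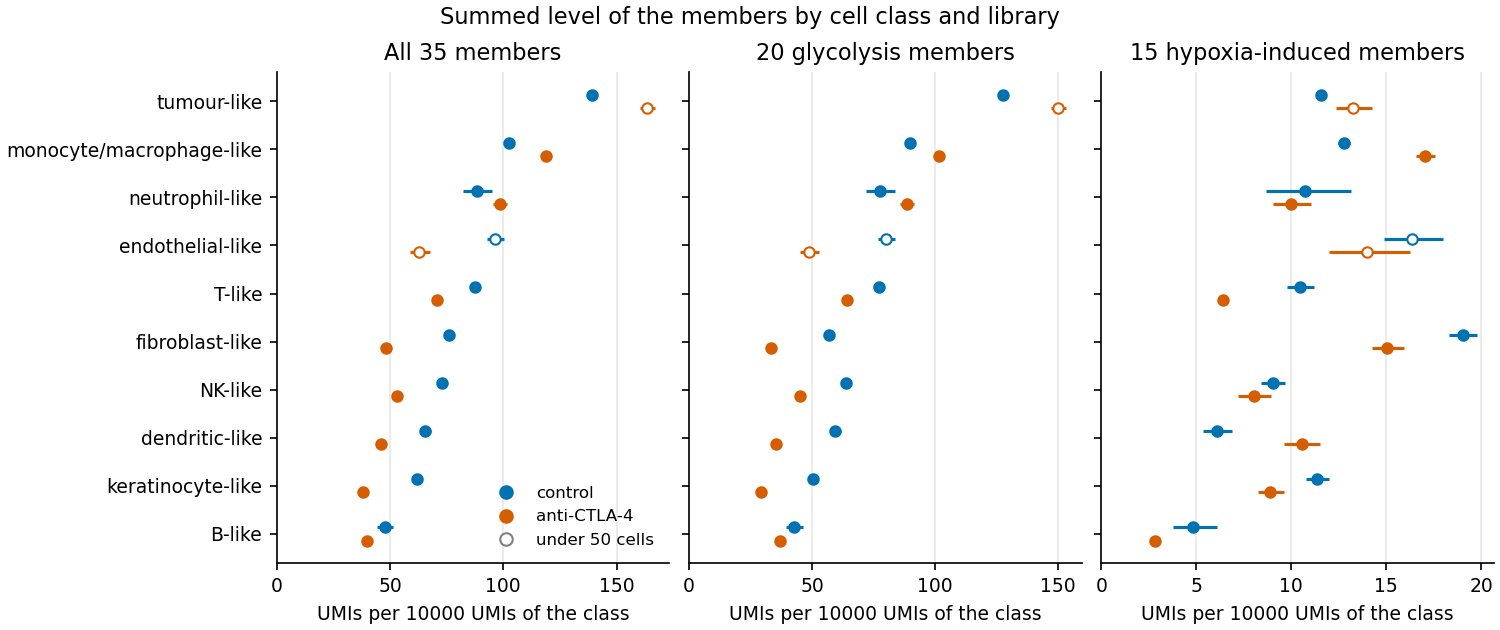
Summed members per 10000 UMIs of a class, for all 35 members, the 20 glycolysis members and the 15 hypoxia-induced members. Blue points are the control library and orange points the anti-CTLA-4 library, open points are classes of under 50 cells, and bars are exact Poisson 95% intervals; tumour-like cells lead for glycolysis members, while fibroblast-like cells, at 19.1 in the control library, lead tumour-like cells (11.5) for hypoxia-induced members.

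The oxygen sensors divided the classes. Egln1, the main prolyl hydroxylase acting on HIF alpha subunits, stood at 23.8 CPM in tumour-like cells and at 29.6 (control) and 42.8 CPM (anti-CTLA-4) in monocyte/macrophage-like cells. Egln3, a related hydroxylase that is itself strongly induced by HIF, gave 5 UMIs over all 2512 tumour-like cells, or 0.0716 CPM. In monocyte/macrophage-like cells it stood at 12.6 CPM in the control and 42.4 CPM in the anti-CTLA-4 library. In neutrophil-like cells it stood at 127 and 145 CPM, and in T-like cells at 38.7 and 19.2 CPM. Egln3 was 175-fold lower in tumour-like than in monocyte/macrophage-like control cells (interval 70.9 to 561). As a share of the UMIs of both hydroxylases, Egln3 made up 0.300% in tumour-like cells (0.0974 to 0.698), 29.8% in control monocyte/macrophage-like cells and 96.6% in anti-CTLA-4 neutrophil-like cells (88.1 to 99.6).

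The secreted factors were low in tumour-like cells. Vegfa, the chief angiogenic growth factor, stood at 21.3 CPM there, at 138 (control) and 411 CPM (anti-CTLA-4) in monocyte/macrophage-like cells and at 158 and 107 CPM in fibroblast-like cells. It was 6.48-fold lower in tumour-like than in monocyte/macrophage-like control cells (5.88 to 7.12). Adm encodes adrenomedullin, a vasodilator peptide. It stood at 1.27 CPM in tumour-like cells, at 67.0 and 217 CPM in fibroblast-like cells and at 147 and 118 CPM in keratinocyte-like cells. Adm was 52.5-fold lower in tumour-like than in fibroblast-like control cells (38.7 to 71.2).

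Members acting on mitochondria were abundant in tumour-like cells. Bnip3, a receptor for mitophagy on the outer mitochondrial membrane, stood at 297 CPM there, at 177 and 220 CPM in monocyte/macrophage-like cells, at 230 and 263 CPM in neutrophil-like cells and at 59.3 and 19.7 CPM in T-like cells. Its level in tumour-like cells was 1.68-fold that of monocyte/macrophage-like control cells (1.56 to 1.80) and 5.01-fold that of T-like control cells (3.76 to 6.85). Higd1a, a mitochondrial inner membrane protein that interacts with the respiratory chain, was more even, at 234 CPM in tumour-like cells and 204 and 263 CPM in monocyte/macrophage-like cells.

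The stress and regulatory members did not share a pattern. Ndrg1, a stress-responsive protein linked to differentiation and metastasis suppression, stood at 252 CPM in tumour-like cells, 267 and 281 CPM in monocyte/macrophage-like cells and 437 and 523 CPM in fibroblast-like cells. Ankrd37, an ankyrin repeat protein and HIF target, stood at 98.0 CPM in tumour-like cells and 33.0 CPM in monocyte/macrophage-like control cells, a ratio of 2.97 (2.52 to 3.52). Ddit4 encodes REDD1, an inhibitor of the growth kinase mTORC1. It went the other way, with 72.1 CPM in tumour-like cells against 189 CPM in monocyte/macrophage-like, 339 CPM in T-like and 493 CPM in fibroblast-like control cells. Ddit4 was 6.84-fold lower in tumour-like than in fibroblast-like cells (6.30 to 7.42). Mxi1, a transcriptional antagonist of MYC, was 5.61-fold lower in tumour-like cells (22.3 CPM) than in monocyte/macrophage-like control cells (124.96 CPM).

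Among the remaining enzymes, collagen prolyl hydroxylases separated the stroma. P4ha1 stood at 85.1 CPM in tumour-like cells and 134 CPM in fibroblast-like control cells. P4ha2 stood at 22.7 CPM in tumour-like cells, 205 and 163 CPM in fibroblast-like cells and 3.37 CPM in monocyte/macrophage-like control cells. The P4ha2 share of the UMIs of both catalytic subunits was 60.4% (55.8 to 65.0) and 62.0% in fibroblast-like cells of the 2 libraries, 21.1% in tumour-like cells and 4.49% in control monocyte/macrophage-like cells. Car9, a cell-surface carbonic anhydrase that acidifies the surroundings of hypoxic cells, gave 779 UMIs in tumour-like cells (11.2 CPM) and stood at 6.73 CPM in monocyte/macrophage-like control cells. No Car9 UMI was found in fibroblast-like cells of the control library, where 3 UMIs would be 2.23 CPM. Kdm3a, a histone demethylase, stood at 13.9 CPM in tumour-like cells. Ak4, a mitochondrial adenylate kinase, gave no UMI there, where 3 UMIs would be 0.0430 CPM, and 15.9 CPM at most in the classes of at least 50 cells.

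Glucose enters through facilitative transporters. Slc2a1, the transporter GLUT1, stood at 161 CPM in tumour-like cells, 150 and 216 CPM in monocyte/macrophage-like cells and 357 and 325 CPM in neutrophil-like cells. Slc2a3, the high-affinity transporter GLUT3, gave 4 UMIs in tumour-like cells (0.0573 CPM) but stood at 69.1 and 85.2 CPM in neutrophil-like cells and 45.1 and 53.5 CPM in T-like cells. The share of Slc2a3 in the UMIs of both transporters was 0.0355% in tumour-like cells (0.00968 to 0.0909), 0.447% in control monocyte/macrophage-like cells, 16.2% in control neutrophil-like cells and 38.9% (28.8 to 49.7) in control T-like cells. In anti-CTLA-4 T-like cells it was 53.8% (49.99 to 57.6).

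The early glycolytic enzymes also came in different paralogues in different classes. Hexokinases trap glucose in the cell. Hk1 stood at 30.02 CPM and Hk2 at 17.1 CPM in tumour-like cells. The share of Hk2 in their UMIs was 36.3% (34.7 to 38.0) in tumour-like cells, 108 of 216 UMIs in control monocyte/macrophage-like cells and 72.6% (65.7 to 78.8) in control fibroblast-like cells. It was 13.7% (5.70 to 26.3) in control T-like cells. Phosphofructokinase commits sugar to glycolysis. The share of Pfkp against Pfkl was 20.3% (19.6 to 21.1) in tumour-like cells, against 43.4% in monocyte/macrophage-like, 82 of 164 UMIs in T-like, 66.2% in NK-like and 74.7% in dendritic-like control cells. Tumour-like cells thus had the lowest Pfkp share of these 5 classes, and their interval overlapped none of the others. It did overlap that of control B-like cells, whose share was 40% over 20 UMIs (19.1 to 63.9).

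Pfkfb3 and Pfkfb4 make the allosteric activator of phosphofructokinase. Pfkfb3 gave 20 UMIs in tumour-like cells (0.286 CPM) and stood at 44.9 and 66.7 CPM in monocyte/macrophage-like cells, 104 and 80.0 CPM in neutrophil-like cells and 9.44 and 144 CPM in dendritic-like cells. It was 157-fold lower in tumour-like than in monocyte/macrophage-like control cells (98.7 to 262). Pfkfb4 stood at 1.58 CPM in tumour-like cells and 21.5 CPM in monocyte/macrophage-like control cells and was 13.7-fold lower in the former (10.3 to 18.1). Both kinases were thus low in tumour-like cells, and what remained was 84.6% Pfkfb4 (77.2 to 90.3), against 32.4% in control monocyte/macrophage-like cells.

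Gpi1 isomerises glucose phosphate. It stood at 627 CPM in tumour-like and 429 CPM in monocyte/macrophage-like control cells. Aldoa, the aldolase of most tissues, stood at 2188 CPM in tumour-like cells, 1697 and 1510 CPM in monocyte/macrophage-like cells and 962 and 481 CPM in fibroblast-like cells. Its symbol covers 2 annotated features, which were summed. Aldoc, the aldolase best known from brain, made up 0.0281% of the UMIs of both aldolases in tumour-like cells (0.0204 to 0.0379) and 1.19% (0.958 to 1.46) in control monocyte/macrophage-like cells.

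The enzymes of the later steps, from Tpi1 to Pkm, were abundant everywhere and several were highest in tumour-like cells. Pgk1 makes the first ATP of the pathway. It stood at 1278 CPM in tumour-like cells, 602 and 645 CPM in monocyte/macrophage-like cells and 576 and 367 CPM in T-like cells. Its tumour-like level was 2.12-fold that of monocyte/macrophage-like control cells (2.04 to 2.21). Pkm, pyruvate kinase, stood at 2540 CPM in tumour-like cells against 1555 and 1260 CPM in monocyte/macrophage-like cells. Eno1, an enolase, stood at 741 CPM in tumour-like cells against 422 and 813 CPM there. Tpi1 (870 CPM) and Pgam1 (803 CPM) differed from monocyte/macrophage-like control cells by less than 1.5-fold.

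Gapdh departed from the other enzymes of these steps. It stood at 829 CPM in tumour-like cells and at 1084 (control) and 2241 CPM (anti-CTLA-4) in monocyte/macrophage-like cells. Several of these enzymes have near-identical processed copies elsewhere in the genome, and reads that match a copy may have been lost or assigned to it. The only copy examined, Eno1b, had 13634 UMIs against 65136 for Eno1, so Eno1 levels are uncertain.

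The lactate genes ran in opposite directions between tumour-like and monocyte/macrophage-like cells. Ldha, which turns pyruvate into lactate, stood at 2497 CPM in tumour-like cells, 1141 and 1095 CPM in monocyte/macrophage-like cells and 1307 and 1167 CPM in T-like cells. It was 2.19-fold higher in tumour-like than in monocyte/macrophage-like control cells (2.13 to 2.25). Slc16a3, the lactate exporter MCT4, ran in the opposite direction. It stood at 1.26 CPM in tumour-like cells (88 UMIs), 223 and 368 CPM in monocyte/macrophage-like cells, 1048 and 1211 CPM in neutrophil-like cells and 90.03 and 59.2 CPM in fibroblast-like cells. It was 177-fold lower in tumour-like than in monocyte/macrophage-like control cells (142 to 222) and 832-fold lower than in neutrophil-like control cells. The related transporter Slc16a1 (MCT1), which is not a member, stood at 38.7 CPM in tumour-like cells, 43.9 CPM in fibroblast-like cells and 8.53 CPM in monocyte/macrophage-like control cells. Pdk1, the kinase that shuts off pyruvate entry into mitochondria, stood at 25.04 CPM in tumour-like and 10.5 CPM in monocyte/macrophage-like control cells, a ratio of 2.37 (1.78 to 3.24).

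**Figure D2:**
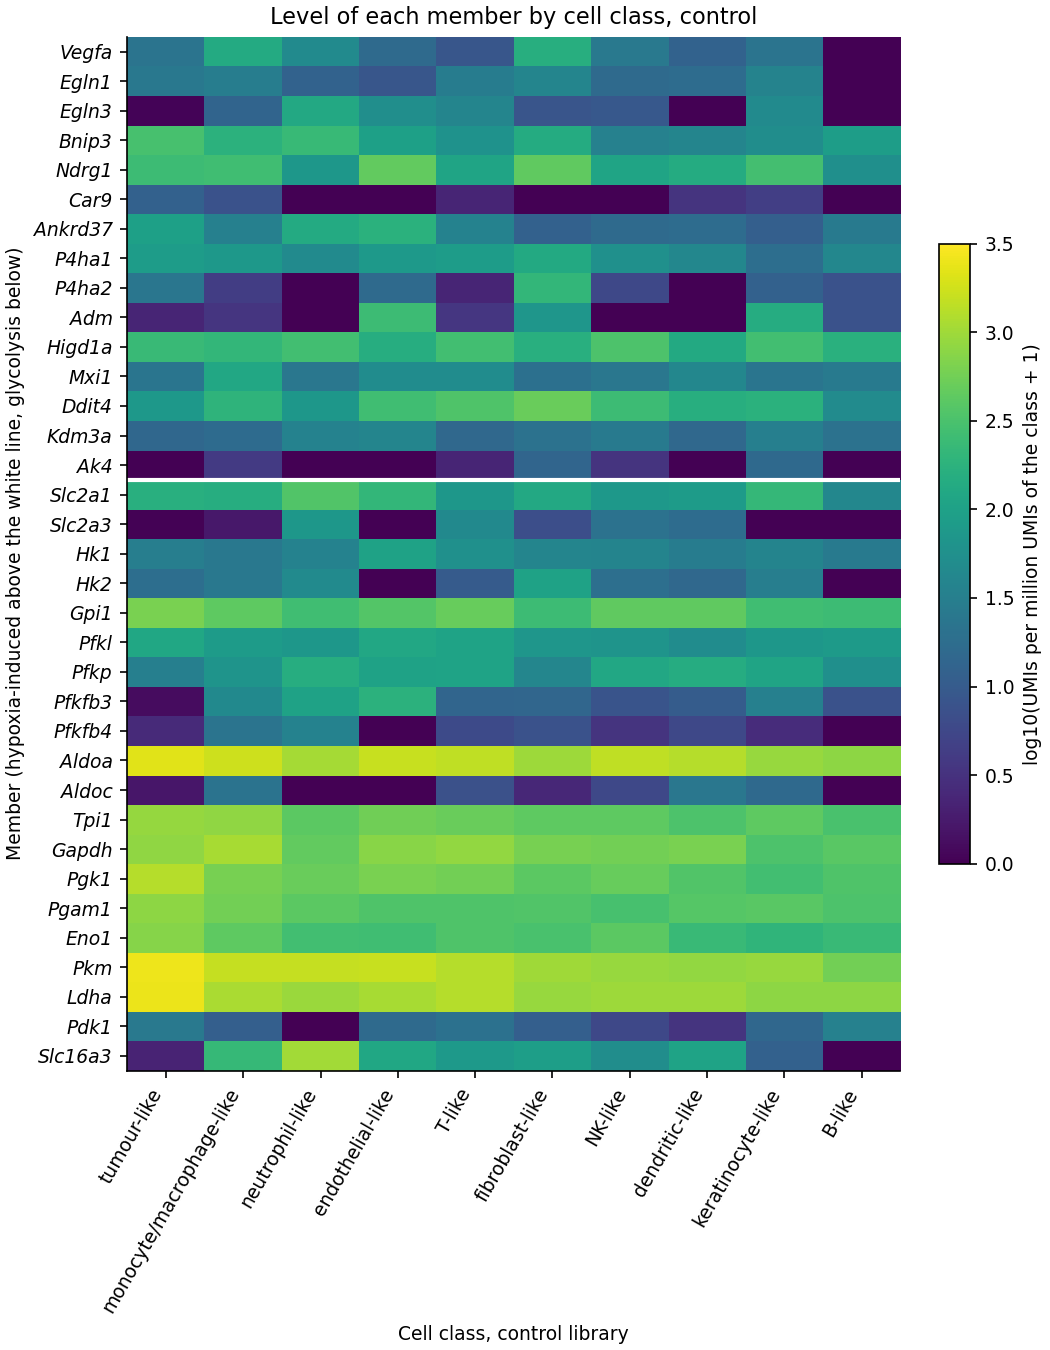
Level of each of the 35 members (rows, by role) in each class (columns) of the control library, as log10 of CPM plus 1. Ldha, Pkm and Aldoa are high in all columns, while Slc16a3, Egln3, Pfkfb3 and Slc2a3 are near 0 in tumour-like cells and present in neutrophil-like cells.

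Counted over the list, higher and lower members were nearly even between tumour-like and monocyte/macrophage-like cells. Against B-like cells more members were higher than lower, but few B-like UMIs limit this count. Against monocyte/macrophage-like control cells, 33 members reached 20 UMIs over both classes, of which 9 were at least 1.5-fold higher in tumour-like cells and 10 at least 1.5-fold lower. Over all genes measured the shares were 40.5% higher and 27.1% lower. The median member log2 ratio was 0.10, beside 0.23 over all genes. Against neutrophil-like cells 18 of 32 members were higher (68.4% of all genes) and 8 lower (18.9%). Against fibroblast-like cells 13 of 32 were higher (36.9%) and 12 lower (27.3%), and against T-like cells 14 of 34 were higher (39.7%) and 11 lower (30.9%). Higher and lower members were 19 and 7 of 32 against dendritic-like cells (48% and 25.3% of all genes), 16 and 10 of 33 against keratinocyte-like cells (36.7% and 29%), 17 and 7 of 33 against NK-like cells (39.2% and 30.8%) and 24 and 3 of 32 against B-like cells (51.1% and 25.7%). Tumour-like UMIs alone can bring a member to 20, so some members had few or no UMIs in the smaller classes. Intervals lay above 1 for 13 of 32 members against B-like cells and below 1 for 0. Against neutrophil-like cells they lay above 1 for 10 of 32 and below 1 for 5. Of the 48 other pathway genes, 41 were measured against monocyte/macrophage-like cells, with 15 higher and 12 lower. Hif1a, the hypoxia-inducible alpha subunit, was among those lower in level in tumour-like cells, at 53.5 CPM against 191 CPM. Tumour-like marker RNA stood at 7.21% of the tumour-like level in these monocyte/macrophage-like cells. The subtraction tried took the larger T-like share of the control library, 11.8%, from every class other than tumour-like. After it 11 members were higher and 10 lower, and shares over all genes were not computed.

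Within tumour-like cells many members varied beyond counting error. Cells were thinned to 2000 UMIs each, which left 2433 cells and dropped 79, and the variance over the mean was computed, which is 1 for pure counting error. Of 24 members with a thinned mean of at least 0.05, 15 reached 1.5, against 7.12% of 4650 genes, and the median was 1.67 beside 1.06 over all genes. The value tends to rise with the mean count, and the genes were not matched for it. Every member with a mean of at least 1.256 UMIs reached 1.5, and the part of abundance in these counts was not tested. Of the 15 members, 10 were glycolysis members (of 14) and 5 hypoxia-induced members (of 10), and 7 of 25 other pathway genes did so. Thinned to 1000 UMIs, 7 of 17 members reached 1.5, against 5.94% of 2712 genes. Pgk1 had the highest value, 4.18, with 0 UMIs at the 10th percentile of cells, 1 at the median, 6 at the 90th percentile and 22 in the highest cell. Aldoa followed with 3.66 and ran from 1 through 3 and 9 to 46 UMIs at the same points. Ldha had 2.96, Bnip3 2.85, Ndrg1 2.62 and Pkm 2.54. Hk1, at 1.06, was close to counting error.

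The whole list moved over a wide range. The members summed to a median of 22 UMIs of 2000 per tumour-like cell, with 8 at the 5th percentile, 70 at the 95th and 134 in the highest cell. Monocyte/macrophage-like cells varied largely through the same members. Thinning left 771 such control cells and dropped 338 with under 2000 UMIs, so the shallower cells of the class are not described. Of 25 members tested in the 771 cells, 12 reached 1.5 (11.4% of all genes), led by Ddit4 (2.66), Aldoa (2.57), Tpi1 (2.33) and Pkm (2.28), with Slc16a3 at 2.22. Of these 12 members, 10 also reached it in tumour-like cells, and the others were Vegfa (1.61) and Slc16a3, whose mean in tumour-like cells was too low to be tested.

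**Figure D3:**
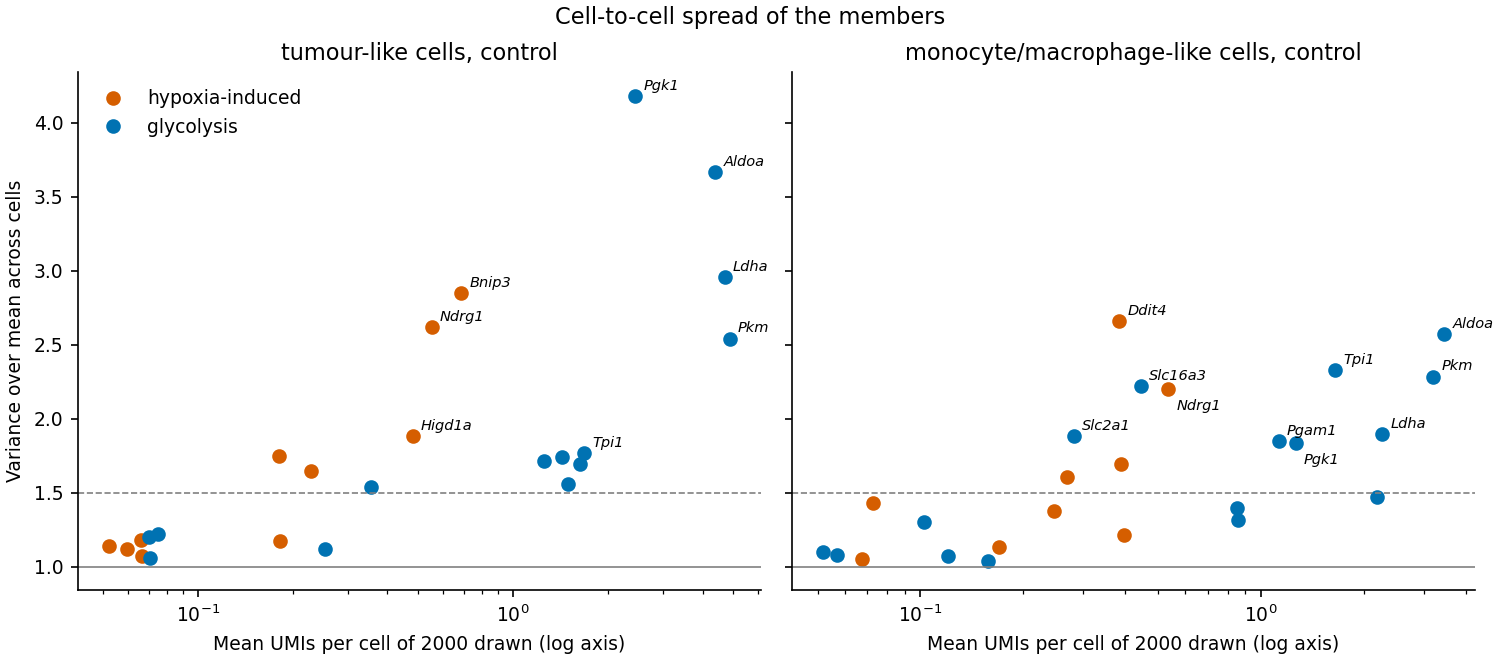
Variance over mean against mean count per cell for the members tested, in tumour-like and in monocyte/macrophage-like cells of the control library thinned to 2000 UMIs. Orange points are hypoxia-induced and blue points glycolysis members, with a solid line at 1 and a dashed line at 1.5. Pgk1 (4.18), Aldoa (3.66) and Ldha (2.96) lie highest among the members in tumour-like cells.

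Tumour-like cells with the most hypoxia-induced UMIs also had the most glycolysis UMIs. Each thinned cell was scored by the summed UMIs of the 15 hypoxia-induced members, and the glycolysis members, which do not enter the score, were read in quintiles of it. Mean glycolysis UMIs per cell were 17.7, 18.3, 19.1, 24.2 and 44.7 from the lowest to the highest quintile (SD over cells 7.72 in the lowest and 21.8 in the highest), each of 486 or 487 cells. The highest quintile thus stood apart, at 2.53 times the lowest, while the 3 lowest quintiles lay within 1.5 UMIs of each other. The score itself averaged 0, 0.688, 1.498, 2.85 and 8.13. It is a range and not a cell type, since 639 cells scored 0 and 144 sat at the cut below the highest quintile. The quintiles also differed in cell cycle genes, whose summed mean was 4.86 in the lowest and 2.18 in the highest quintile, and in depth before thinning, with a median of 32020 against 24120 UMIs. Among cells of low cell cycle score the ratio was 2.86, and the part of depth before thinning was not tested.

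The relation held for single glycolysis members. All 15 measured glycolysis members were at least 1.5-fold higher in the highest quintile (14.4% of all genes were so, and 19.5% lower), and the interval lay above 1 for 14 of them, the exception being Hk2 at 1.65 (0.872 to 3.21). Their median ratio was 2.40, against 0.947 over all genes. Pdk1 had the highest ratio, 6.23 (3.52 to 11.9), followed by Pfkp at 6.08 (3.43 to 11.6), the transporter Slc2a1 at 5.16 (4.06 to 6.63) and Pgk1 at 4.43 (4.06 to 4.84). The abundant enzymes Pkm (2.04), Pgam1 (2.18), Gapdh (2.19) and Ldha (2.21) had lower ratios. Of 31 other pathway genes measured, 20 were at least 1.5-fold higher and 0 lower. Among them Ero1l, an oxidase of disulphide bond formation, had a ratio of 9.00 (6.88 to 11.96), Gbe1, the glycogen branching enzyme, 6.90, and Bnip3l, the paralogue of Bnip3, 4.73. Slc16a1, at 0.982, had an interval that included 1 (0.652 to 1.48).

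Clusters within the tumour-like class carried the list at different levels. Cluster 4, led by Mgp, Thbs2 and Spp1, held all members at 169 per 10000 UMIs, cluster 6 (Nppb, Nfkbia and Ier3) at 141, cluster 5 (Procr, Cryab and Csf3) at 135 and the cycling cluster 7 (Tk1, Ube2c and Rrm2) at 123. Cluster 17, led by Gm26917, Neat1 and Malat1, held them at 88.7. Its cells of both libraries had a median of 4730 UMIs. The 211 control cells kept at thinning had a median of 5594 UMIs before it and of 6.36% mitochondrial UMIs. Such cells of the other tumour-like clusters had medians of 0.761% to 1.57% mitochondrial UMIs. The part of these in its level was not tested. Bnip3 stood at 540 CPM in cluster 4 and 182 CPM in cluster 7, Ankrd37 at 206 and 64.0 CPM, and Ndrg1 at 460 CPM in cluster 5 and 59.1 CPM in cluster 7. The relation to the score was nonetheless present inside each cluster. Glycolysis members in the highest quintile of a cluster stood at 3.06 times the lowest in cluster 4 (2.91 to 3.21), 2.65 in cluster 5, 3.004 in cluster 6, 1.88 in cluster 7 (1.78 to 1.99) and 2.39 in cluster 17.

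**Figure D4:**
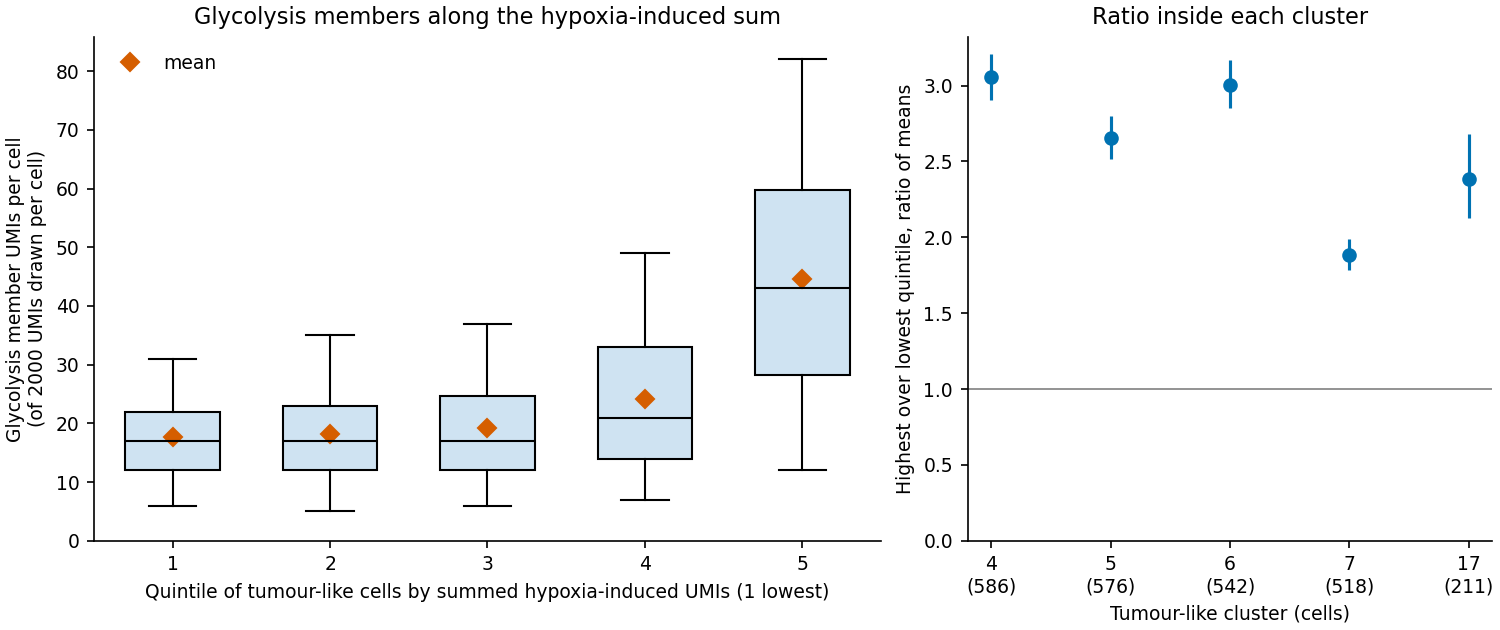
Left, glycolysis-member UMIs per thinned tumour-like cell by quintile of the hypoxia-induced score, with boxes for quartiles, whiskers from the 5th to the 95th percentile of cells and diamonds for means. Right, ratio of the highest to the lowest quintile inside each tumour-like cluster with its 95% counting interval, between 1.88 in cluster 7 and 3.06 in cluster 4.

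Across the 2433 thinned cells most pairs of members were positively correlated, many of them weakly. The points share library, thinned depth and the sum of 2000 UMIs, so these values are descriptions. The 276 pairs among 24 members had a median Pearson correlation of 0.108, against 0.00169 over 10808925 pairs of all genes, and 146 pairs (52.9%) exceeded 0.1, against 0.773%. Pkm and Ldha had the highest correlation, 0.520, followed by Aldoa and Pgk1 at 0.516 and Pgk1 and Ldha at 0.508. Bnip3, the hypoxia-induced member most correlated with a glycolysis member, reached 0.483 with Pgk1. Vegfa was correlated only weakly, and slightly negatively with Ldha (-0.0321, the lowest of all pairs), Pgam1, Pkm, Eno1, Gapdh and Aldoa (-0.00712). Its other correlations were positive, at most 0.0887 with P4ha2. With Vegfa left out of the hypoxia-induced score, its level in the highest quintile was 3.05-fold that in the lowest (1.84 to 5.26). Of 2401 non-members ranked by correlation with the summed members, the 10 highest were Mif (0.564), Vim (0.539), Fam162a (0.506), Bsg (0.460), Lgals3 (0.435), Anxa2 (0.399), Ero1l (0.392), Bnip3l (0.368), Eef1a1 (0.360) and Tnfrsf9 (0.346). Mif, Fam162a, Ero1l and Bnip3l are on the list of other pathway genes, and Bsg encodes basigin, a chaperone of the lactate transporters.

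Between the libraries the members differed by class, with values given for anti-CTLA-4 over control. In monocyte/macrophage-like cells 10 of 33 measured members were at least 1.5-fold higher in the anti-CTLA-4 library (16.8% of all genes) and 4 were lower (17.7%). Vegfa stood at 138 and 411 CPM, 2.98-fold higher (2.70 to 3.30). Hk2 stood at 24.2 and 78.0 CPM, 3.22-fold higher (2.54 to 4.10). Egln3 was 3.38-fold higher (2.43 to 4.74) and Gapdh 2.07-fold higher (1.99 to 2.15). Ddit4 was 1.747-fold lower (1.53 to 2.01), Aldoc 2.16-fold lower (1.37 to 3.503), Ankrd37 1.74-fold lower (1.26 to 2.45) and Tpi1 1.46-fold lower (1.37 to 1.55).

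The clusters of this class differed in share between the libraries and in the direction of the members. Cluster 1, led by Arg1, Csf2rb and Cd14, held 538 control and 396 anti-CTLA-4 cells, while cluster 3, led by Ccl8 and the complement genes C1qa and C1qb, held 571 and 54. In cluster 1, 13 of 31 members were higher (15.5% of all genes) and 2 lower (10.6%), and Vegfa stood at 240 and 461 CPM. In cluster 3, 3 of 31 were higher (18.1%) and 14 lower (27.2%). Vegfa there stood at 91.0 and 82.9 CPM, and Tpi1 was 2.07-fold lower (1.76 to 2.45). Hk2 was higher in both, 3.44-fold in cluster 1 (2.33 to 5.21) and 3.63-fold in cluster 3 (2.32 to 5.55). Between the clusters of the anti-CTLA-4 library, 23 of 31 members were higher in cluster 1 (26.9% of all genes) and 0 were lower (16%). In the control library 4 of 31 were higher (16.3%) and 4 lower (18.8%).

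In neutrophil-like cells 5 of 24 members were higher in the anti-CTLA-4 library (31.9% of all genes) and 4 lower (26.4%), and intervals were wide because the control cells were 83. Gapdh stood at 449 and 1180 CPM, 2.63-fold higher (1.89 to 3.74). P4ha1 was 3.47-fold higher (1.29 to 13.1) and Eno1 1.84-fold higher (1.20 to 2.94). Ankrd37 stood at 138 and 36.2 CPM, 3.82-fold lower (1.62 to 8.91), Higd1a was 2.38-fold lower (1.39 to 3.99) and Gpi1 2.01-fold lower (1.17 to 3.35). Slc16a3 stood at 1048 and 1211 CPM with overlapping intervals (844 to 1287 and 1104 to 1326).

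In dendritic-like cells 4 of 22 members were higher (19.5% of all genes) and 10 lower (21.2%). Pfkfb3 stood at 9.44 and 144 CPM, 15.2-fold higher (5.66 to 57.5), and Ndrg1 at 139 and 581 CPM, 4.17-fold higher (3.13 to 5.63). Mxi1 was 2.92-fold higher (1.66 to 5.37). The makeup of this class of 63 and 52 cells differed between the libraries, by markers chosen after their values were seen. Ccr7, a receptor of migrating dendritic cells, stood at 786 and 2627 CPM in it, and Fscn1, an actin-bundling protein of mature dendritic cells, at 61.4 and 1941 CPM. At a clustering resolution of 0.5, 2 control and 21 anti-CTLA-4 cells formed a dendritic-like cluster of their own that held 55 of the 65 Pfkfb3 UMIs and 183 of the 263 Ndrg1 UMIs seen in the class in treated mice. Another such cluster, high in Siglech, held 31 and 15 cells, with Pfkfb3 at 0 UMIs in both libraries and Ndrg1 at 5 and 2 UMIs. The part of this makeup in the ratios of the class was not tested. Tpi1 was 2.97-fold lower (2.14 to 4.19), Aldoa 2.40-fold lower (2.06 to 2.81), Pkm 2.36-fold lower (1.96 to 2.86) and Ldha 2.00-fold lower (1.69 to 2.37).

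Of 16 measured glycolysis members, 9 were at least 1.5-fold lower in fibroblast-like cells of treated mice and 8 in keratinocyte-like cells. In fibroblast-like cells 5 of 29 members were higher (23.4% of all genes) and 13 lower (16.5%). Adm stood at 67.0 and 217 CPM there, 3.24-fold higher (2.50 to 4.23), and Hk2 was 1.78-fold higher (1.40 to 2.26). Ddit4 stood at 493 and 66.6 CPM, 7.41-fold lower (5.61 to 9.97), Pkm was 2.74-fold lower (2.42 to 3.12), Pgk1 2.57-fold lower (2.13 to 3.13) and Tpi1 2.56-fold lower (2.12 to 3.12). In keratinocyte-like cells 1 of 28 members was higher (20.1% of all genes), Hk2 at 2.74-fold (1.79 to 4.27), and 12 were lower (21.8%), with Pfkfb3 6.07-fold (2.18 to 23.5), Ddit4 4.44-fold (2.99 to 6.80), Tpi1 3.499-fold (2.79 to 4.43) and Pkm 3.09-fold lower (2.67 to 3.59).

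In T-like cells 2 of 30 members were higher (17.1% of all genes) and 13 lower (14.4%). Gapdh stood at 866 and 1450 CPM, 1.67-fold higher (1.55 to 1.81), and Kdm3a was 2.13-fold higher (1.17 to 4.34). Ddit4 stood at 339 and 115 CPM, 2.95-fold lower (2.55 to 3.39), Bnip3 was 3.003-fold lower (2.10 to 4.23), Pkm 1.98-fold lower (1.85 to 2.12) and Tpi1 1.90-fold lower (1.70 to 2.12). The class differed in makeup, as cluster 15, led by Tnfrsf4, Ctla4 and Foxp3, accounted for 101 of the 320 T-like cells of control mice and 179 of the 1724 of treated mice, and cluster 12, led by Cd8b1, for 22 and 284. Within cluster 15, 1 of 26 members was higher (18.5% of all genes) and 14 were lower (18.1%), and within cluster 0, led by Lef1, 2 of 24 were higher (26.9%) and 13 lower (17.7%). Lower members thus outnumbered higher ones inside both clusters.

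In NK-like cells 6 of 27 members were higher (22.3%) and 11 lower (17.3%), with Egln3 7.63-fold higher (3.23 to 20.8), Pfkfb3 6.16-fold higher (2.34 to 19.0), Vegfa 2.84-fold higher (1.56 to 5.23) and Pgk1 2.63-fold lower (2.06 to 3.40). In B-like cells 2 of 22 were higher (28.7%) and 8 lower (16.2%), with Gapdh 1.84-fold higher (1.43 to 2.43), Bnip3 4.77-fold lower (2.35 to 9.09), Ndrg1 4.46-fold lower (1.751 to 10.1) and Tpi1 2.35-fold lower (1.68 to 3.21).

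Single enzymes of the pathway thus did not move together between the libraries. Over the 8 classes compared, the interval of Gapdh lay above 1 in 6 and below 1 in 0, while those of Tpi1, Pkm and Gpi1 lay below 1 in 7 and above 1 in 0. Aldoa was below 1 in 7 and above 1 in 1, and Ldha below 1 in 6. Hk2 was above 1 in 3 of the 5 classes where it was measured and below 1 in 0. Summed, all members stood at 1.16 times the control level in monocyte/macrophage-like cells and 1.05 without Gapdh, at 0.808 and 0.712 in T-like cells and at 0.636 and 0.604 in fibroblast-like cells. The control library held more tumour-like marker RNA outside tumour-like cells than the anti-CTLA-4 library, at 28.8% against 5.37% of the tumour-like level in fibroblast-like cells and 11.8% against 0.886% in T-like cells. The subtraction tried took the T-like share of each library from every class other than tumour-like. In control cells the T-like share was below those of fibroblast-like, neutrophil-like (21.1%), B-like (18.9%) and keratinocyte-like cells (12.8%). It was above those of monocyte/macrophage-like (7.21%), NK-like (6.69%) and dendritic-like cells (2.77%), so more was taken from these than their own gauge. Shares over all genes were not computed after the subtraction. NK-like cells then had 8 higher members instead of 6 and 6 lower instead of 11, so that higher members outnumbered lower ones. The count of lower members was 4 instead of 8 in B-like cells, and other counts of at least 2 members changed by no more than 1.5 times.

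**Figure D5:**
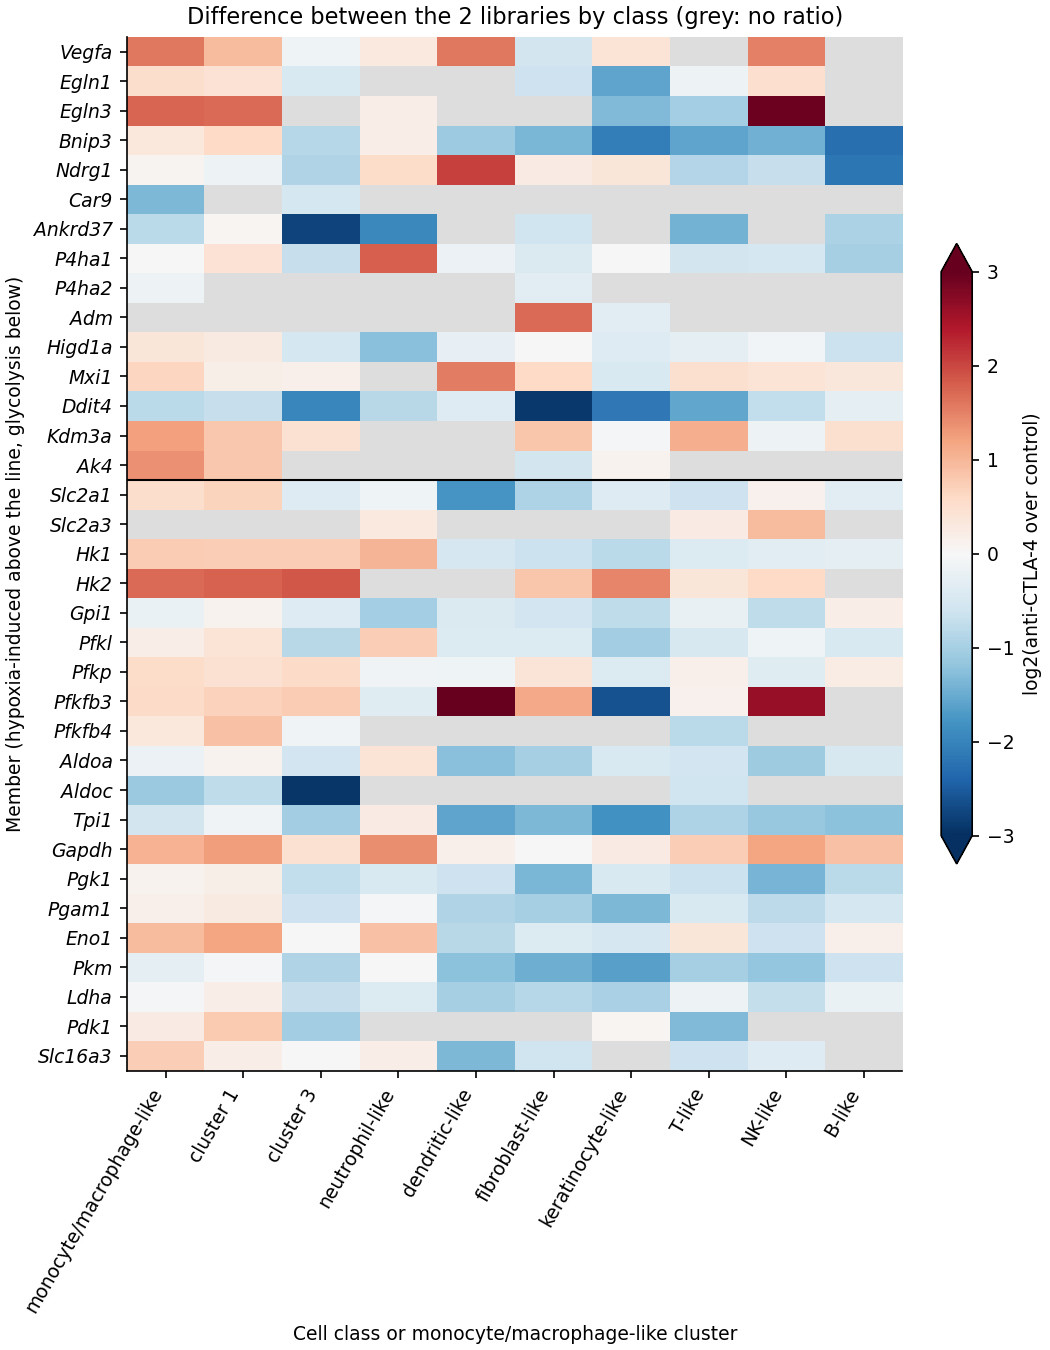
Log2 ratio of anti-CTLA-4 over control for each member (rows) in each class compared (columns), with grey for members under 20 UMIs over both libraries or with no UMI in either one of them. Gapdh is higher in the anti-CTLA-4 library in most columns, while Tpi1, Pkm and Gpi1 are lower in most columns.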

How the data were processed

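Gene expression was measured in 1 control and 1 anti-CTLA-4 droplet library. The deposited values are raw counts of UMIs for every gene in every barcode, per the file headers. Cell Ranger 5.0.0 and the builds mm10 and GRCm38 are named in the submitters' processing notes, while no annotation release is given in the sources used here. The deposited receptor libraries were not used here. The members, gene lists and settings were chosen with earlier results of these data known.

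Filters kept barcodes with 200 or more genes and no more than 15% mitochondrial UMIs. Scrublet marked 0 control cells and 1 anti-CTLA-4 cell (0.0245%) at its own threshold, so the 240 (4.39%) and 133 (3.27%) highest scores, the number expected at 0.8% per 1000 cells, were removed. Cells were clustered together on 2000 variable genes, without members, pathway genes, receptor segments, mitochondrial and ribosomal genes (30 principal components, 15 neighbours, Leiden resolution 1.0; scanpy 1.11.5, leidenalg 0.10.2, Python 3.11.15). A cluster was named from 3 or more markers, each found in at least 20% of cells, with a mean log2 fold of at least 1.0 (20 CPM added), and tumour-like clusters needed Ptprc in under 5% of cells. These thresholds were set after the data were seen, and class names are rebuilt, so they can differ from the authors'.

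UMIs were summed per class of at least 50 cells. Levels have exact Poisson intervals, ratios exact conditional binomial intervals and shares exact Clopper-Pearson intervals at 95% (numpy 2.4.6, scipy 1.17.1). Ratios needed 20 UMIs over both sides, and counts used a fold of 1.5. Zero counts were bounded by 3 UMIs. The steps were tested on simulated counts. Members given value by value were the 12 with the most tumour-like UMIs, the 6 farthest from 1 in each direction against monocyte/macrophage-like cells, the 6 most variable, the 4 farthest from 1 per class between libraries and the 7 paralogue pairs; others were named by role. Sequences are from RefSeq promoters on GRCm38.p6. Alternative filters, clusterings, denominators and thinning depths were tried. Free RNA was subtracted as the T-like share of tumour-like marker RNA in each library, taken from every class other than tumour-like.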

Additional observations from a re-analysis of the deposited data

Results flagged for a closer look

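The summed members stood on opposite sides of the control level in different cell groups, which is why these values are listed. With 1 library per treatment the difference between the groups was not tested. All members together were 1.3 times the control level in cluster 1 of the monocyte/macrophage-like cells in the anti-CTLA-4 library, and 0.731 times in cluster 3. They were 1.16 times the control level in all monocyte/macrophage-like cells and 1.11 times in neutrophil-like cells, but 0.808 times in T-like cells. Without Gapdh the ratio was 1.17 in cluster 1, 0.654 in cluster 3 and 0.712 in T-like cells. In neutrophil-like cells it was 1.03 without Gapdh, with an interval that included 1 (0.954 to 1.12).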

How the results depend on the processing

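No paired analysis was possible because there was 1 library per treatment. The balance of higher and lower members turned in 4 of 136 comparisons made under another setting. It became 8 higher and 6 lower in NK-like cells with free RNA subtracted. Tumour-like cells had 11 higher and 10 lower members against monocyte/macrophage-like cells with free RNA subtracted, 12 and 10 without mitochondrial and ribosomal UMIs, and 13 and 15 against fibroblast-like cells with no minimum of UMIs. The tumour-like level of all members, 139.2 per 10000 UMIs, was 140.4 with a mitochondrial limit of 10%, 139.8 with at least 500 genes, 139.8 with doublets kept, 140.1 at resolution 0.5, 139.6 with the members among the clustering genes, 190.3 without mitochondrial and ribosomal UMIs in the denominator and 135.4 with cells weighted equally. Chosen after seeing the data, adding cluster 10 gave 140.1 and leaving out cluster 17 gave 140.4.

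The ratio of glycolysis members between the highest and lowest quintile of the score, 2.526, was 2.687 with at least 500 genes, 2.628 at resolution 0.5, 2.626 with the members among the clustering genes, 2.276 thinned to 1000 UMIs, 2.912 thinned to 4000, 2.863 among cells of low cell cycle score, 2.103 for tertiles and 2.131 without Bnip3 and Ndrg1 in the score. Chosen after seeing the data, it was 2.269 without Bnip3, 2.628 with cluster 10, 2.651 without cluster 17, and 3.055, 2.653, 3.004, 1.882 and 2.387 inside clusters 4, 5, 6, 7 and 17. Thinned to 1000 UMIs, 7 members rather than 15 reached a variance over mean of 1.5. Fewer were tested, and the value itself tends to fall as mean counts fall.

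Counts between libraries moved as follows. With cells weighted equally, 2 members were lower in monocyte/macrophage-like and 4 higher in T-like cells. With free RNA subtracted, 2 were higher in keratinocyte-like, 6 lower in NK-like and 4 lower in B-like cells. With no minimum of UMIs, 8 were higher in neutrophil-like, 10 in dendritic-like, 2 in keratinocyte-like and 9 in B-like cells. Shares over all genes were not computed for these settings, nor for those where the balance turned, so these counts say nothing particular to the members. At a fold of 2, 5 members were higher in tumour-like than in monocyte/macrophage-like cells (29.8% of all genes) and 9 lower (20.2%). Between libraries that fold left 6 higher (6.38%) and 2 lower (8.62%) in monocyte/macrophage-like, and 3 higher (21.4%) and 3 lower (16.8%) in neutrophil-like cells. It left 2 higher (9.89%) and 7 lower (6.89%) in fibroblast-like, and 1 higher (8.15%) and 5 lower (6.42%) in T-like cells. NK-like cells had 4 higher (8.69%) and 5 lower (8.39%), and B-like cells 1 higher (17.8%) and 4 lower (6.57%). Depth limits the values of all members most in neutrophil-like cells, with a median of 933 UMIs per control cell.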
